A study of Mus musculus with 26 samples.

Results

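The interleukin-1 (IL-1) family genes described here are 10 of the 24848 genes listed in each library: the ligands Il1a, Il1b and Il18, the IL-1 receptor antagonist Il1rn, and the receptor chains Il1r1, Il1r2, Il1rap, Il1rl1, Il18r1 and Il18rap. They were taken by symbol from the gene tables, and all 10 passed the filter on low counts in the fit across all groups. The libraries are poly(A) RNA of sorted CD4+ T cells of C57BL/6 mice with active experimental autoimmune encephalomyelitis (EAE, an induced T cell disease that models multiple sclerosis), taken at day 14. Regulatory T cells (Treg, Foxp3+) and conventional T cells (Tconv) were sorted from the central nervous system (CNS) and from the draining lymph nodes (dLN). All mice carried Foxp3Cre-ERT2, a Cre recombinase that is expressed in Foxp3+ cells and is active only with tamoxifen, and all received tamoxifen from day 7 to day 14. Control mice (Ctrl) had this allele alone, and the mice called icKO here also had the floxed allele Tnfrsf1bFlox/Flox, so that the TNF receptor TNFR2 (Tnfrsf1b) was the target in Treg. Tconv of icKO mice carry the same floxed allele, but the driver of the Cre is a Treg gene. Each of the 8 groups had 3 libraries, except that both CNS Tconv groups had 4. The labels name the replicates as mice but give no age, sex or pooling. P-values measure the spread between these libraries.

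IL-1α and IL-1β, made mostly by myeloid cells, both signal through IL-1R1 (Il1r1), which pairs with the accessory chain IL-1RAcP (Il1rap) and recruits MYD88 and the IRAK kinases to activate NF-κB. IL-1RA (Il1rn) occupies IL-1R1 without signalling, and IL-1R2 (Il1r2) is a decoy that binds IL-1 but has no signalling domain. ST2 (Il1rl1) binds IL-33 together with IL-1RAcP and is known as a marker of tissue Treg, whereas IL-18 signals through IL-18Rα (Il18r1) and IL-18Rβ (Il18rap), a receptor known for driving interferon-γ production in T cells. In EAE, IL-1 signalling in T cells is known to promote pathogenic Th17 cells.

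The 25 libraries used in the fit held 12.4 to 18.5 M counts (median 14.4 M), with 11089 to 14259 genes detected. The 1 library labelled dLN Tconv icKO replicate 3 stood apart, with 7.78 M counts, 6005 genes above 0 and a highest rank correlation of 0.700 with any other library, against at least 0.944 for the others. It was left out of the fit, which leaves 2 libraries in that group, and values with it are given where it matters. The deposited tables of 5 CNS Tconv libraries (Ctrl replicates 3 and 4 and icKO replicates 2, 3 and 4) carry the other genotype's code in their names. The labels were kept, and lost calls on CNS Tconv without these 5 are given beside the results. Foxp3 ranged from 23.8 to 69.4 CPM (read counts as a share of the library total, scaled by edgeR's TMM factors) in Treg and from 0.114 to 1.53 CPM in Tconv. Tnfrsf1b, counted over the whole gene and so no direct measure of the deleted part, was at 454 to 711 CPM in Ctrl and 352 to 510 CPM in icKO Treg of the CNS. In dLN Treg, it was at 736 to 857 CPM in Ctrl and 618 to 620 CPM in icKO. No gene was called in either of these Treg comparisons. In CNS Tconv, Tnfrsf1b was at 176 to 229 CPM in Ctrl and 269 to 390 CPM in icKO, without overlap.

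Markers of other cell types were high in the CNS Treg libraries. The summed level of 22 monocyte and macrophage markers was 6365 to 10471 CPM in the 6 CNS Treg libraries, 1035 to 1415 CPM in CNS Tconv Ctrl, 1611 to 2189 CPM in CNS Tconv icKO and 331 to 1290 CPM in the dLN libraries. Of defining myeloid markers, Lyz2 (lysozyme) was at 413 to 1508 CPM in CNS Treg and at 0 to 9.53 CPM in CNS Tconv. In dLN Treg it was at 59.4 to 575 CPM in Ctrl and 248 to 532 CPM in icKO, which overlapped with CNS Treg. In dLN Tconv it was at 29.9 to 68.9 CPM in Ctrl and 53.1 to 70.9 CPM in icKO. S100a8 of neutrophils was at 35.6 to 404 CPM in CNS Treg, at most 1.15 CPM in CNS Tconv and at most 2.90 CPM in the dLN. T cell markers (10 genes) summed to 5899 to 10319 CPM across all 25 libraries. Fewer cells of a type and less RNA per cell cannot be told apart in such bulk samples.

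Of the 6 receptor genes, 5 lie in 1 cluster on chromosome 1, all on the plus strand, over 477.6 kb (GRCm38, GENCODE gene models). They are Il1r2 (chr1:40074079-40125231), Il1r1 (chr1:40225080-40317257), Il1rl1 (chr1:40429570-40465415), Il18r1 (chr1:40465552-40500854) and Il18rap (chr1:40515362-40551705). Il1rl2, the IL-36 receptor gene and not among the 10, lies between Il1r1 and Il1rl1, and only 0.137 kb separates the end of Il1rl1 from the start of Il18r1. Il1a (chr2:129299610-129309972) and Il1b (chr2:129364570-129371139) lie 54.6 kb apart on the minus strand of chromosome 2, and Il1rn (chr2:24336853-24351494) lies elsewhere on that chromosome on the plus strand. Il18 is at chr9:50554827-50581840 and Il1rap at chr16:26581704-26730117, both on the plus strand. The library kit does not mark strand. Reads where genes on the opposite strand overlap Il1a, Il1b, Il1r2, Il1rap and Il18 therefore cannot be assigned by strand. The overlapping genes also had counts of their own. In CNS Treg Ctrl, Il1bos held at most 10 counts against 1418 to 3069 of Il1b. Gm16894 held at most 16 there, against 1303 to 2625 of Il1r2. Gm20319, which overlaps Il1rap, held at most 3.51 counts in any library. Gm14023 held up to 60.6 counts in CNS Treg icKO, against 200 to 698 of Il1a. Bco2 was closer to Il18, at 20 to 111 against 81 to 126 counts in CNS Treg Ctrl.

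The start regions of 4 of these clustered receptor genes are shown because their transcripts, described below, differed between groups in calls that held when any 1 library was left out, which no call on Il1r1 did. Each runs from 250 bases before to 50 bases after a RefSeq transcript start (GRCm38.p6), on the plus strand. Capitals mark matches, on either strand, to AGATAA, the core bound by GATA factors, or to TTCNNNGAA, the core bound by STAT factors. The lines give Il1r2 at chr1:40085843-40086142, the starts of Il1rl1 at chr1:40429320-40429619 and chr1:40439379-40439678, the most downstream of 3 starts of Il18r1 at chr1:40465756-40466055, and Il18rap at chr1:40515112-40515411.
Il1r2: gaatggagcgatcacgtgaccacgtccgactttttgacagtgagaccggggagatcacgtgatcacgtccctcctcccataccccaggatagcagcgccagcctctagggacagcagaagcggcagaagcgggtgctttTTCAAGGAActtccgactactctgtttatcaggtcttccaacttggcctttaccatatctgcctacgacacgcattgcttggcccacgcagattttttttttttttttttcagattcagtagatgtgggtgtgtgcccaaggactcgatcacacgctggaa
Il1rl1, first start: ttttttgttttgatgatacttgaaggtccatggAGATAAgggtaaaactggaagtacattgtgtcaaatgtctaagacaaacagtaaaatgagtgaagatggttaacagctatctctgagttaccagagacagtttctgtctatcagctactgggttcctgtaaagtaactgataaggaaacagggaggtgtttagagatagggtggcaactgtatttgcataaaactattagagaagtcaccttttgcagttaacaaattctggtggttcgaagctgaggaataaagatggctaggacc
Il1rl1, second start: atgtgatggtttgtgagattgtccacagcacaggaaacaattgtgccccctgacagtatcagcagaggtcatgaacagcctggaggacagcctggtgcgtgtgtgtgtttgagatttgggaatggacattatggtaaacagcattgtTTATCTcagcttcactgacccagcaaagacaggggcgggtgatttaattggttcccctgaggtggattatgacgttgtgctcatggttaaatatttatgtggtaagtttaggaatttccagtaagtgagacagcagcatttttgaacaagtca
Il18r1: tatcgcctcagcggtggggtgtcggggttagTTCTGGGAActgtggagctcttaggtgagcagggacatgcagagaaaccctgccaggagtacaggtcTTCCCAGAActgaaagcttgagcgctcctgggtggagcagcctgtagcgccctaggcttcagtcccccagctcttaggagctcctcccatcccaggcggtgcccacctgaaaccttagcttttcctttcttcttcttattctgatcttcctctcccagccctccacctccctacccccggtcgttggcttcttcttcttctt
Il18rap: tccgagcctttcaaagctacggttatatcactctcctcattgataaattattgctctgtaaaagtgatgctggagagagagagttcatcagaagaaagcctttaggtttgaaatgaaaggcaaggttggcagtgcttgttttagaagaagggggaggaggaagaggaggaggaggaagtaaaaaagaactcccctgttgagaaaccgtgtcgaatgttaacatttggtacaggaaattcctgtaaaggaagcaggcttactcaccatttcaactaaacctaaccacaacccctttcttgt
Both Il1rl1 starts held a GATA core, at position -217 and -103 from the start, as did 11.2% of 32851 RefSeq promoters of this length. Il1r2 held a STAT core at -111, and the most downstream start of Il18r1 held 2, at -219 and -152, against a share of 8.30% of all promoters. The other starts of Il18r1, not shown, held no STAT core. Il18rap held neither, nor any match to the AP-1 core TGANTCA (7.81% of promoters), the T-box core GGTGTGA (3.98%) or the κB core of NF-κB (1.2%). Among the ligand promoters, Il1a held an AP-1 core at -12 and a TATA box (TATAAA, 13.6% of promoters) at -32, and Il1b a TATA box at -31. Il1rn held an AP-1 core at -141 of 1 start and a TATA match at 14 after another, and Il18 a TATA match at -175. No T-box or κB core was in any of the 16 start regions of the 10 genes. A match describes the letters only.

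Il1b, the secreted IL-1 made by activated myeloid cells, was high in every CNS Treg library and near 0 in all other libraries of the fit. CNS Treg held 106, 193 and 107 CPM in Ctrl mice and 159, 129 and 244 CPM in icKO mice. All 4 CNS Tconv Ctrl libraries were at 0, which allows up to 0.209 CPM (3 counts per library), and CNS Tconv icKO was at 0, 2.91, 0.270 and 0.341 CPM. Treg and Tconv of the dLN did not pass 1.95 CPM in the libraries of the fit. The library left out, dLN Tconv icKO replicate 3, held 92.6 CPM of its own total. The 6 CNS Treg libraries therefore lay above all others of the fit with no overlap. Il1b was 7.59 ± 1.18 log2 units (SE) higher in CNS than in dLN Treg of Ctrl mice (adjusted p = 0.00024) and 8.37 ± 1.23 higher in icKO mice (adjusted p = 0.00011). In the Ctrl CNS it was at least 650-fold higher in Treg than in Tconv (adjusted p = 1.4e-05).

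Il1a, the IL-1 ligand that is active without processing, followed the same order at a lower level. CNS Treg of Ctrl mice were at 22.8, 57.5 and 13.7 CPM, and CNS Treg of icKO mice at 13.4, 20.8 and 59.0 CPM. CNS Tconv Ctrl was at 0 in all 4 libraries, and CNS Tconv icKO was at 1.14, 0.0662, 1.08 and 2.53 CPM. The dLN libraries ranged from 0 to 2.49 CPM, so that CNS Treg again did not overlap with any other group. CNS exceeded dLN in Treg by 5.51 ± 1.18 log2 units in Ctrl (adjusted p = 0.0029) and by 4.50 ± 1.11 in icKO mice (adjusted p = 0.0071, and 0.075 with all 26 libraries). Treg exceeded Tconv at least 150-fold in the Ctrl CNS (adjusted p = 6.6e-05).

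Il1rn, the antagonist, was at 72.5, 226 and 71.9 CPM in CNS Treg Ctrl. In CNS Treg icKO it was at 73.9, 5.36 and 267 CPM, so that replicate 2 of this group lay within the range of dLN Treg (0.917 to 5.51 CPM). That library had the lowest sum of monocyte and macrophage markers of the 6 (6365 CPM) and, of CNS Treg icKO, the highest sum of 14 neutrophil markers (900 CPM). CNS Tconv did not pass 1.55 CPM and dLN Tconv did not pass 0.742 CPM. The difference between CNS and dLN Treg was 5.96 ± 1.10 log2 units in Ctrl (adjusted p = 0.00068) and 4.96 ± 1.04 in icKO mice (adjusted p = 0.0017). Between CNS Treg and CNS Tconv it was 8.57 ± 1.16 in Ctrl (adjusted p = 2.4e-05). Il1b exceeded Il1rn in TPM (a share of all transcripts, corrected for gene length) in both CNS Treg groups, where the ratio of mean Il1rn to mean Il1b was 0.463 in Ctrl and 0.318 in icKO.

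Il18, an IL-1 relative that needs caspase-1 for its release, was low everywhere. The 3 Ctrl libraries of CNS Treg were at 9.45, 6.74 and 5.06 CPM and the 3 icKO libraries at 14.2, 3.90 and 13.4 CPM, against 1.76 to 6.23 CPM in dLN Treg and 0.961 to 4.88 CPM in dLN Tconv. In CNS Tconv Ctrl it was at 0, 1.23, 0 and 0 CPM, and in CNS Tconv icKO at 1.88, 1.46, 1.08 and 2.53 CPM. Treg exceeded Tconv in the Ctrl CNS by 4.39 ± 0.96 log2 units (adjusted p = 0.0027, and 0.12 when only those groups were fitted). In icKO mice the difference was 2.59 ± 0.87 (adjusted p = 0.055, and 0.04 without CNS Treg icKO replicate 2).

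**Figure D1:**
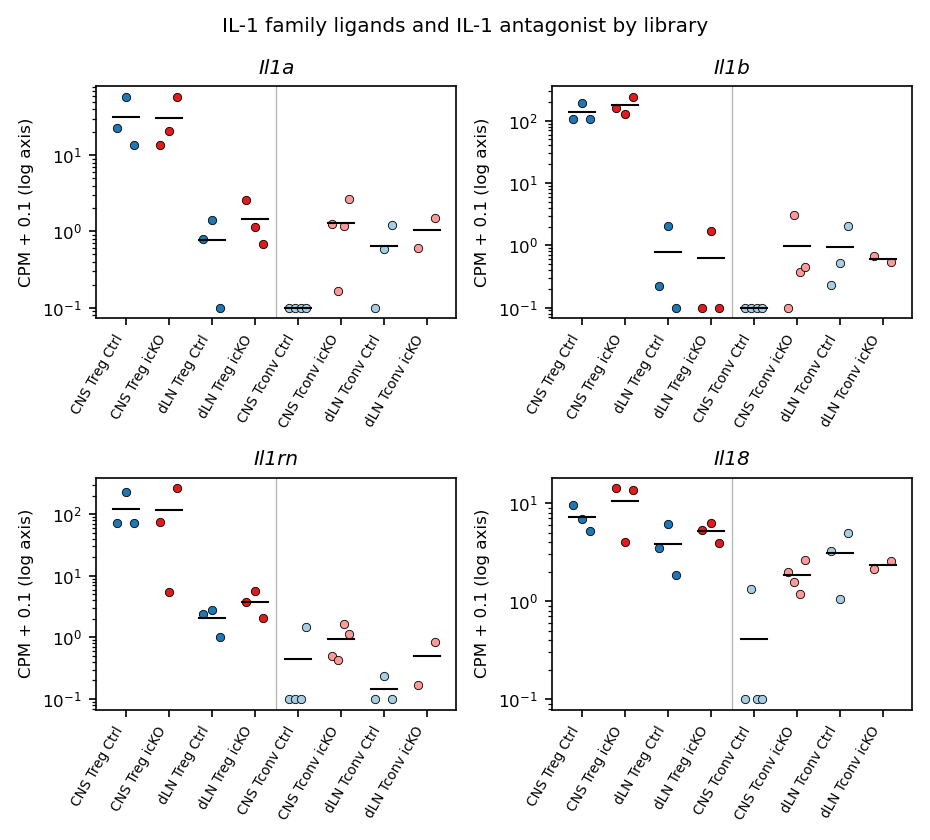
TMM-scaled CPM + 0.1 on a log axis for Il1a, Il1b, Il1rn and Il18, with 1 point per library, grouped by tissue, cell type and genotype, and bars at the group means. The 6 CNS Treg libraries of Il1a and Il1b lie above every other library, whereas 1 CNS Treg icKO library of Il1rn lies at 5.36 CPM, within the range of dLN Treg.

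The markers of other cells moved with these ligands. In CNS Treg against dLN Treg of Ctrl mice, 20 of 22 monocyte and macrophage markers, 12 of 12 microglia markers, 9 of 14 dendritic cell markers and 9 of 12 tested neutrophil markers were called higher and none lower. In CNS Treg against CNS Tconv of Ctrl mice, 18 of 22, 10 of 12, 6 of 14 and 10 of 12 were called higher. Summed neutrophil markers were at 185 to 1748 CPM in CNS Treg, 0 to 15.4 CPM in CNS Tconv and 0.917 to 16.3 CPM in the dLN. Microglia markers summed to 2249 to 3044 CPM in CNS Treg and to at most 502 CPM in all other groups. Within the 6 CNS Treg libraries, the highest Il1b (244 CPM) was in the library with the highest sum of monocyte and macrophage markers (10471 CPM) and the lowest sum of neutrophil markers (185 CPM). The lowest Il1b (106 CPM, CNS Treg Ctrl replicate 1) was in a library with nearly the same monocyte and macrophage sum (10383 CPM) and the highest neutrophil sum (1748 CPM). The part of such RNA in the ligand levels was not tested. The calls of Il1a, Il1b and Il1rn in CNS Treg against dLN Treg and against CNS Tconv held in every fit that left out 1 library.

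**Figure D2:**
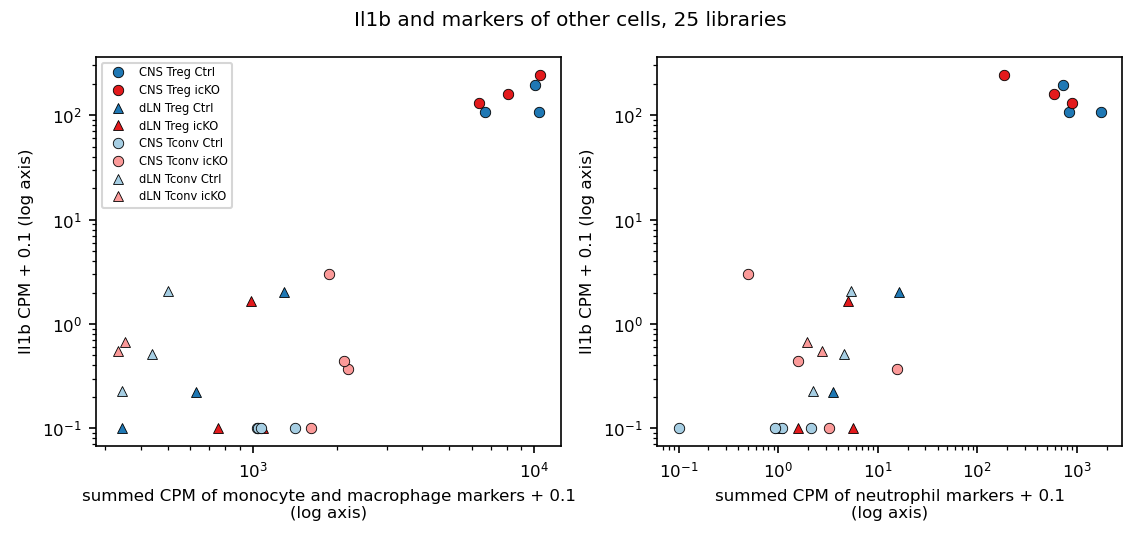
Il1b against the summed CPM of 22 monocyte and macrophage markers (left) and of 14 neutrophil markers (right), all + 0.1 on log axes, with 1 point for each of the 25 libraries. The 6 CNS Treg libraries lie apart at the upper right of both panels, at 106 to 244 CPM of Il1b, and no other library passes 2.91 CPM.

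Il1r1, the signalling IL-1 receptor, lay higher in Tconv than in Treg of the dLN. It was at 54.4, 31.7 and 57.2 CPM in dLN Tconv Ctrl and 43.7 and 51.0 CPM in dLN Tconv icKO, and at 2.84 to 6.73 CPM in all 6 dLN Treg libraries, with no overlap. The difference of Treg from Tconv in the dLN was -3.19 ± 0.98 log2 units in Ctrl (adjusted p = 0.036) and -3.49 ± 1.04 in icKO mice (adjusted p = 0.034). Neither call was made when any 1 library of the compared groups was left out, with adjusted p of 0.057 to 0.13 in Ctrl and 0.092 to 0.13 in icKO mice. In the CNS, Il1r1 spread widely: CNS Tconv Ctrl was at 14.3, 26.7, 8.30 and 44.1 CPM, CNS Tconv icKO at 49.3, 18.1, 31.4 and 18.3 CPM, CNS Treg of Ctrl mice at 0, 14.3 and 14.4 CPM and those of icKO mice at 8.72, 0.139 and 5.15 CPM. Neither CNS comparison of Treg with Tconv passed the test (adjusted p = 0.33 in Ctrl and 0.066 in icKO).

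Il1r2, the decoy receptor, was the most abundant of the 10 genes on the TPM scale in dLN Treg, with a mean of 412 ± 29.9 TPM (SD, n = 3) in Ctrl and 402 ± 31.1 TPM (SD, n = 3) in icKO. In CPM it was at 273, 320 and 307 in dLN Treg Ctrl and at 301, 322 and 276 in dLN Treg icKO, above every library of the other groups. CNS Treg Ctrl was lower, at 97.7, 165 and 158 CPM, as was CNS Treg icKO at 37.2, 68.5 and 150 CPM. The fall from dLN to CNS was called in icKO Treg (-1.82 ± 0.52 log2 units, adjusted p = 0.015). Without CNS Treg icKO replicate 1 or 2 the adjusted p was 0.062 and 0.058, and with all 26 libraries the call was lost. In Ctrl Treg the difference was -1.10 ± 0.51 with adjusted p = 0.13, although the CNS and dLN libraries did not overlap, and it passed the test when these groups were fitted alone (adjusted p = 0.0089).

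In Tconv, Il1r2 stood at 53.9, 36.8 and 40.2 CPM in dLN Ctrl and 28.7 and 47.5 CPM in dLN icKO. CNS Tconv Ctrl was at 10.3, 32.0, 23.4 and 90.0 CPM, whereas CNS Tconv icKO was at 139, 110, 211 and 109 CPM, all above the 4 Ctrl libraries. Treg exceeded Tconv in the dLN by 2.78 ± 0.54 log2 units in Ctrl (adjusted p = 0.0014) and by 2.98 ± 0.64 in icKO mice (adjusted p = 0.0039, and 0.10 without dLN Tconv icKO replicate 1). In the Ctrl CNS the excess was 1.85 ± 0.48 (adjusted p = 0.0089). That call was lost with all 26 libraries (0.061) and with the compared groups alone (0.099). In the icKO CNS the difference was -0.74 ± 0.48 (adjusted p = 0.35). The CNS Treg libraries also held the myeloid markers given above, and the part of such RNA in their Il1r2 levels was not tested. The library left out, dLN Tconv icKO replicate 3, held 199 CPM of Il1r2, and with it the difference in the dLN of icKO mice was 1.88 and not called.

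Il1r2 exceeded Il1r1 on the TPM scale in all 8 groups, by a ratio of means of 215 in dLN Treg Ctrl and 269 in dLN Treg icKO but of 3.45 in dLN Tconv Ctrl and 3.02 in dLN Tconv icKO. The ratio in single libraries was 168 to 425 in dLN Treg and 2.49 to 4.36 in dLN Tconv, which did not overlap. In CNS Tconv it was 6.31 in Ctrl and 17.9 in icKO, with single libraries at 2.63 to 10.6 and 10.5 to 25.1. Il1rap, the shared accessory chain, varied little: every group mean lay between 18.2 and 27.5 CPM, all neighbouring groups in this order overlapped, and no comparison called it.

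Il1rl1, which encodes the IL-33 receptor ST2, was higher in Treg than in Tconv of both tissues. It was at 71.2, 62.2 and 128 CPM in CNS Treg Ctrl, 183, 101 and 78.9 in CNS Treg icKO, 50.8, 60.2 and 63.7 in dLN Treg Ctrl, and 35.9, 48.3 and 76.7 in dLN Treg icKO. CNS Tconv ranged from 5.96 to 26.7 CPM and dLN Tconv from 0.667 to 5.08 CPM. All 12 Treg libraries lay above all 13 Tconv libraries. Treg exceeded Tconv by 2.51 ± 0.48 log2 units in the Ctrl CNS (adjusted p = 0.00082), 2.68 ± 0.48 in the icKO CNS (adjusted p = 0.00058), 3.70 ± 0.58 in the Ctrl dLN (adjusted p = 0.00015) and 4.28 ± 0.71 in the icKO dLN (adjusted p = 0.00042). These calls held when each library of the compared groups was left out in turn, with adjusted p of at most 0.013. Without the 5 CNS Tconv libraries in doubt, the call in the icKO CNS, with 1 Tconv library left, was lost. Mast cells and basophils can also express ST2. Their 11 markers summed to 11.9 to 53.7 CPM in CNS Treg, 5.18 to 18.1 CPM in CNS Tconv, 8.09 to 74.8 CPM in dLN Treg and 6.45 to 12.9 CPM in dLN Tconv. None of the 4 markers tested was called between Treg and Tconv in either tissue, and 1 was called higher in CNS than in dLN Treg of each genotype. Hdc was at 4.83 to 35 CPM in CNS Treg and 2.2 to 8.74 CPM in CNS Tconv, and Cpa3 at 0 to 0.618 CPM in all libraries but dLN Treg icKO replicate 2 (11.7 CPM). The part of these cells in the Il1rl1 levels was not tested.

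Within Tconv, Il1rl1 was higher in the CNS than in the dLN, by 1.77 ± 0.53 log2 units in Ctrl (adjusted p = 0.039) and 2.77 ± 0.66 in icKO mice (adjusted p = 0.0063). The Ctrl call was lost without CNS Tconv Ctrl replicate 3 (adjusted p = 0.12) or without dLN Tconv Ctrl replicate 1, 2 or 3 (0.095, 0.12 and 0.13). Without the 5 CNS Tconv libraries in doubt the Ctrl difference was 0.81 (adjusted p = 0.30). The Ctrl call was also lost with all 26 libraries (0.37), with the compared groups alone (0.11) and with the replicate block (1.44, adjusted p = 0.061). The icKO call was lost without dLN Tconv icKO replicate 2 (0.13).

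Il18r1, the ligand-binding IL-18 receptor chain, was highest in CNS Tconv icKO, at 139, 99.1, 140 and 101 CPM. These 4 libraries lay above all others, of which the next group, dLN Treg Ctrl, was at 64.7, 81.9 and 85.5 CPM. CNS Tconv Ctrl was at 83.7, 64.8, 67.5 and 58.8 CPM and CNS Treg at 48.3 to 89.1 CPM. The lowest groups were dLN Tconv Ctrl at 43.0, 44.2 and 30.9 CPM and dLN Tconv icKO at 44.8 and 26 CPM. In Tconv the excess of CNS over dLN was 1.75 ± 0.27 log2 units in icKO (adjusted p = 0.00012). In Ctrl it was 0.80 ± 0.22 (adjusted p = 0.027). This Ctrl call was lost without CNS Tconv Ctrl replicate 1 (0.084) or without dLN Tconv Ctrl replicate 1, 2 or 3 (0.059, 0.064 and 0.13). It was also lost with the compared groups alone (0.067) and with all 26 libraries (0.17). In the Ctrl dLN, Treg exceeded Tconv by 0.97 ± 0.23 (adjusted p = 0.0081, and 0.056 without dLN Tconv Ctrl replicate 3), and in the icKO CNS, Treg fell below Tconv, at -0.92 ± 0.22 (adjusted p = 0.0070, and 0.052 with all 26 libraries).

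Il18rap, the signalling IL-18 receptor chain, was also highest in CNS Tconv icKO and low in dLN Tconv. It was at 413, 292, 331 and 320 CPM in CNS Tconv icKO, at 85.8, 173, 144 and 106 CPM in CNS Tconv Ctrl, at 70.0, 62.8 and 29.7 CPM in dLN Tconv Ctrl and at 28 and 19.7 CPM in dLN Tconv icKO. Treg were at 81.7, 123 and 57.7 CPM in CNS Ctrl, 76.9, 26.3 and 104 CPM in CNS icKO and 29.8 to 59.0 CPM in the dLN. CNS exceeded dLN in icKO Tconv by 3.83 ± 0.50 log2 units (adjusted p = 2.1e-05). In Ctrl Tconv the excess was 1.23 ± 0.37 (adjusted p = 0.041). That call was lost without CNS Tconv Ctrl replicate 2 or 3 (0.12 and 0.085) or without dLN Tconv Ctrl replicate 1, 2 or 3 (0.056, 0.10 and 0.17). It was also lost with all 26 libraries (0.68), with the compared groups alone (0.087) and without the 5 in doubt (0.075). In the icKO CNS, Treg fell below Tconv, at -2.30 ± 0.39 (adjusted p = 0.00031, and 0.13 with all 26 libraries). On the TPM scale the ratio of mean Il18rap to mean Il18r1 was 1.57 in CNS Tconv icKO (1.33 to 1.79 in single libraries) and 1.01 in CNS Tconv Ctrl (0.564 to 1.45), against 0.346 in dLN Treg Ctrl.

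**Figure D3:**
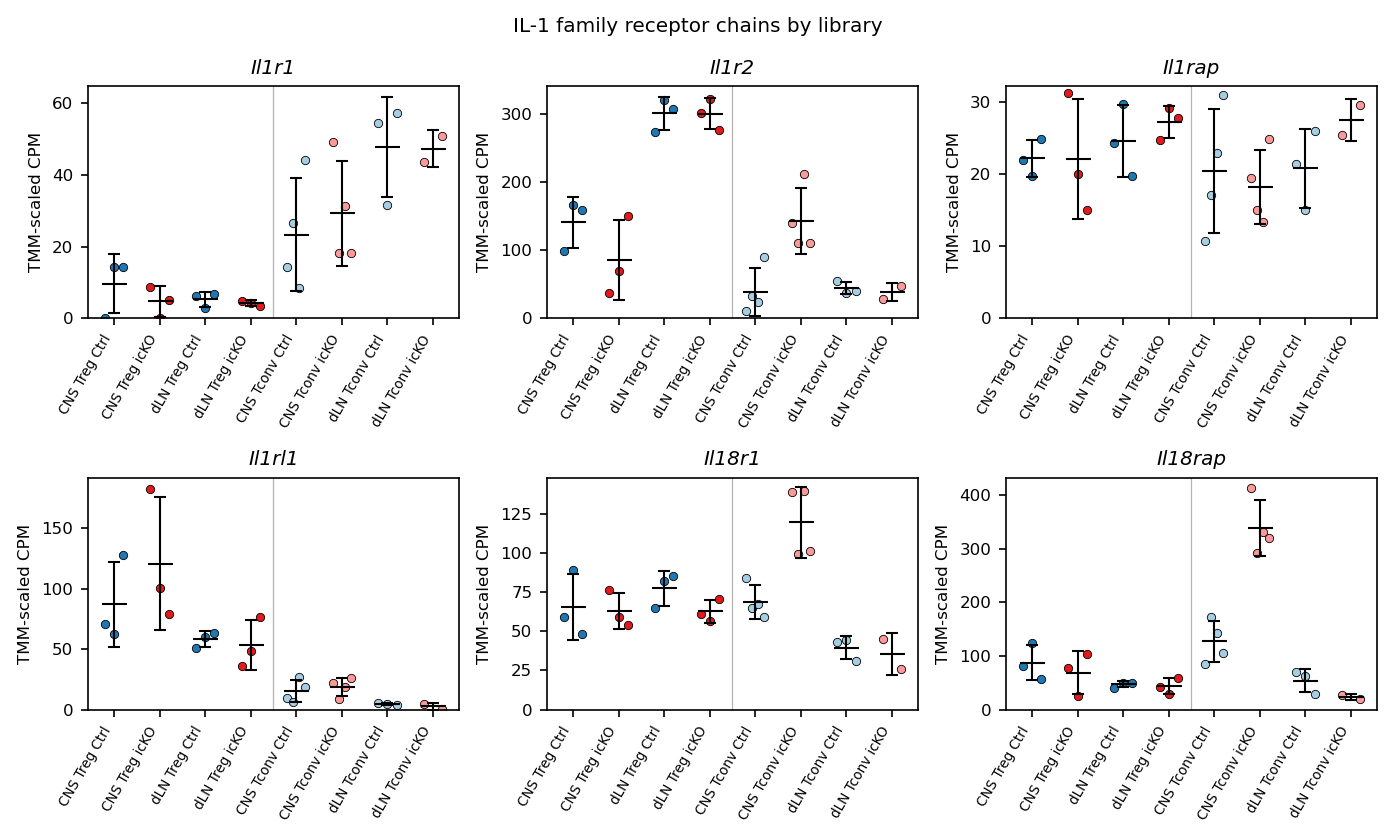
TMM-scaled CPM of the 6 receptor chains, with 1 point per library and bars for the group mean ± SD (linear axes from 0). Il1r2 is highest in dLN Treg, Il1rl1 in Treg of both tissues and Il1r1 in dLN Tconv, and the 4 CNS Tconv icKO libraries lie above all others for Il18r1 and Il18rap.

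The first question of the design was how each T cell type in the CNS differs from the same type in the dLN. In Ctrl Treg, 3 of the 10 genes were higher in the CNS (Il1a, Il1b and Il1rn) and none lower, where 13.3% of 13500 tested genes were higher and 8.55% lower. In icKO Treg the same 3 were higher (13.1% of all genes) and Il1r2 was lower (9.41%). In Ctrl Tconv, Il1rl1, Il18r1 and Il18rap were higher (5.97% of all genes) and Il18 was lower, by 3.15 ± 0.94 log2 units (adjusted p = 0.039, 2.93% of all genes). The Il18 call was lost in 5 of 7 fits that left out 1 library, with adjusted p up to 0.14 without dLN Tconv Ctrl replicate 3. It was also lost without the 5 CNS Tconv libraries in doubt (-2.22, adjusted p = 0.13) and with all 26 libraries (0.26). Il1a and Il1b, at 0 in CNS Tconv Ctrl, were not called lower there by edgeR (adjusted p = 0.071 and 0.14) but were by DESeq2 (0.0034 and 0.020). In icKO Tconv, Il1r2, Il1rl1, Il18r1 and Il18rap were higher and none lower, where 7.81% of all genes were higher and 6.3% lower. The Il1r2 difference there was 1.90 ± 0.59 (adjusted p = 0.034), and its call was lost without CNS Tconv icKO replicate 3 (0.080) or without dLN Tconv icKO replicate 1 (0.31) or 2 (0.10). With all 26 libraries that difference was 0.75 (adjusted p = 0.52), and without the 5 in doubt it was 1.88 (0.083). The median log2 difference of the 10 genes was 0.89 in Ctrl Treg and 0.88 in icKO Tconv, against 0.02 and 0 over all genes. In Ctrl Tconv it was -0.10, against -0.01 over all genes.

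The tissue difference was larger in Treg than in Tconv of Ctrl mice for Il1a (adjusted p of the interaction 0.0058) and Il1b (0.0034), where 2.55% of all genes had a higher difference in Treg and 1.12% a lower one. The Il1b call was lost without dLN Tconv Ctrl replicate 3 (adjusted p = 0.085), and neither was called with all 26 libraries. Since CNS Tconv Ctrl was at 0 for both, no size is given for this interaction. For the other 8 genes the interaction was not called.

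The second question was how Treg and Tconv of the same tissue differ. In the Ctrl CNS, 6 genes were higher in Treg (Il1a, Il1b, Il1rn, Il18, Il1r2 and Il1rl1) and none lower, where 10.8% of all genes were higher and 7.03% lower. In the icKO CNS, Il1a, Il1b, Il1rn and Il1rl1 were higher (8.38% of all genes) and Il18r1 and Il18rap lower (4.20%). Without the 5 CNS Tconv libraries in doubt, the calls of Il1a (adjusted p = 0.14), Il1rl1 (0.061) and Il18r1 (0.051) were lost and 3 of the 6 were left. In the Ctrl dLN, Il1r2, Il1rl1 and Il18r1 were higher in Treg (6.04% of all genes) and Il1r1 was lower (5.48%). In the icKO dLN, Il1r2 and Il1rl1 were higher (5.44%) and Il1r1 lower (4.47%). The ligands did not differ between Treg and Tconv of the dLN by this test. Il1rn came closest there, at 1.96 ± 0.91 CPM (SD, n = 3) in Treg and 0.0457 ± 0.079 CPM (SD, n = 3) in Tconv of Ctrl mice (adjusted p = 0.067, and 0.014 by DESeq2).

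**Figure D4:**
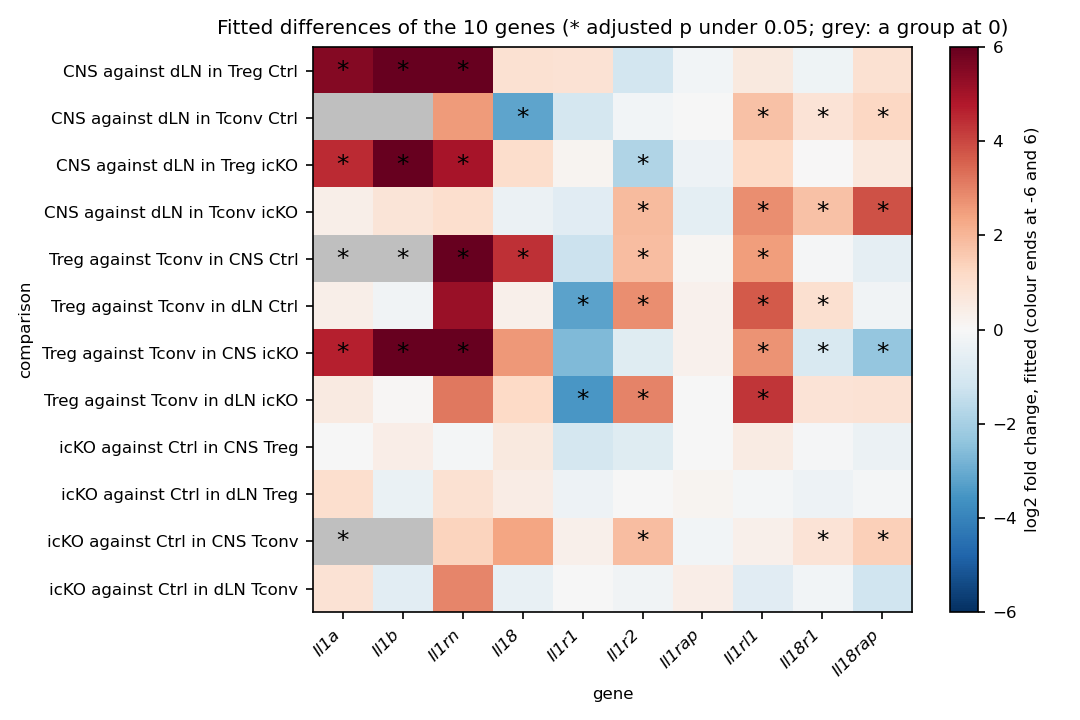
Fitted log2 fold changes of the 10 genes (columns) in the 12 comparisons of 2 groups (rows), in colours that end at -6 and 6, with asterisks at an adjusted p under 0.05 and grey cells where a group is at 0. The ligands Il1a, Il1b and Il1rn are marked in the 4 rows that set CNS Treg against dLN Treg or CNS Tconv, and no cell is marked in 3 of the 4 genotype rows.

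The third question was what differed between icKO and Ctrl mice. None of the 10 genes was called between icKO and Ctrl in CNS Treg, dLN Treg or dLN Tconv, and no gene of the 13500 was called there by edgeR. At an unadjusted p under 0.05, 915, 146 and 197 genes passed in these comparisons, of the 10 genes only 1 in dLN Tconv and none in the others, and DESeq2 called 7, 2 and 2 genes. In CNS Treg, the differences of the 10 genes ranged from -1.04 ± 0.93 log2 units for Il1r1 to 0.57 ± 0.91 for Il18. The gene with the unadjusted p under 0.05 in dLN Tconv was Il18rap, at -1.18 ± 0.45 log2 units with an adjusted p of 1.

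In CNS Tconv, which the Foxp3-driven Cre does not target by design, 4 of the 10 genes were higher in icKO mice (Il1a, Il1r2, Il18r1 and Il18rap) and none lower, where 1.58% of all genes were higher and 1.53% lower. Il18rap rose by 1.41 ± 0.34 log2 units (adjusted p = 0.026), Il18r1 by 0.80 ± 0.20 (adjusted p = 0.034) and Il1r2 by 1.87 ± 0.45 (adjusted p = 0.028). Il1a was at least 5.77-fold higher than in the 4 Ctrl libraries at 0 (adjusted p = 0.037). For Il1r2, Il18r1 and Il18rap the icKO and Ctrl libraries did not overlap. The share of all genes without such overlap was not counted, so this says nothing particular to the 3 genes. At an unadjusted p under 0.05, 2437 of the 13500 genes passed in this comparison. For Il1a, icKO replicate 2 held 1 count, below the 3 counts that a library at 0 allows, so that it cannot be placed above the Ctrl libraries. Il1b was at least 4.22-fold higher in the mean, but 1 icKO library was at 0 and another held most of the counts, and it was not called (adjusted p = 0.17, and 0.019 by DESeq2). The differences of Il18 (adjusted p = 0.16), Il1rn (0.60), Il1r1 (0.87), Il1rl1 (0.77) and Il1rap (0.80) were not called. Il18 was called by DESeq2 (0.045) and, by edgeR, without CNS Tconv Ctrl replicate 2 (0.0015), the only Ctrl library with Il18 above 0.

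These CNS Tconv calls were close to the threshold. With all 26 libraries none of the 4 was called, at adjusted p of 0.22 for Il1a, 0.32 for Il1r2, 0.30 for Il18r1 and 0.77 for Il18rap. Without the 5 CNS Tconv libraries in doubt, which leaves 2 Ctrl and 1 icKO library, Il1r2 was called (2.72, adjusted p = 0.036), and Il1a (0.18), Il18r1 (0.91, adjusted p = 0.19) and Il18rap (1.69, adjusted p = 0.17) were not. When each of the 8 libraries was left out in turn, the highest adjusted p was 0.094 for Il1a, 0.094 for Il1r2, 0.10 for Il18r1 and 0.076 for Il18rap. None of the 4 was called without CNS Tconv Ctrl replicate 3 or CNS Tconv icKO replicate 1 or 3. Without CNS Tconv Ctrl replicate 1, 2 or 4, 1, 1 and 3 of them were called, and without CNS Tconv icKO replicate 2 or 4, 4 and 2. All their differences stayed above 0 in these fits. The monocyte and macrophage sum, 1035 to 1415 CPM in Ctrl and 1611 to 2189 CPM in icKO, also did not overlap between these groups, whereas 1 of its 22 markers was called. Of these markers Ccr2 (means of 334 CPM in Ctrl and 626 CPM in icKO) and Ly6c2 (308 and 561 CPM) are also expressed by activated T cells. Lyz2, at 0 to 8.93 CPM in Ctrl and 0.628 to 9.53 CPM in icKO, and Cd14, at 0 to 1.44 CPM and 0.171 to 3.31 CPM, overlapped. Their medians were slightly lower in icKO than in Ctrl. Csf1r and C1qa also overlapped, but their medians were higher in icKO. For Csf1r they were 10.9 CPM in Ctrl and 33.2 CPM in icKO, and for C1qa 4.92 and 14.7 CPM. The median log2 difference of the 22 markers was 0.89, against 0 over all genes. The part of such RNA in these 4 differences was not tested.

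The genotype difference in CNS Treg was smaller than in CNS Tconv by 2.59 ± 0.68 log2 units for Il1r2 (adjusted p of the interaction 0.085), 1.76 ± 0.51 for Il18rap (0.12) and 0.85 ± 0.31 for Il18r1 (0.20). None was called by edgeR, where 0.111% of all genes were higher and 0.0667% lower, and DESeq2 gave 0.026 for Il1r2, 0.020 for Il18rap and 0.0099 for Il1a. Without the 5 CNS Tconv libraries in doubt, edgeR called Il1r2 (-3.44, adjusted p = 0.040). In CNS against dLN Tconv, the interaction for Il18rap was 2.60 ± 0.57 (adjusted p = 0.19, and 0.0022 by DESeq2). By edgeR none of all 13500 genes passed that interaction, 1101 had an unadjusted p under 0.05, and DESeq2 called 76.

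**Figure D5:**
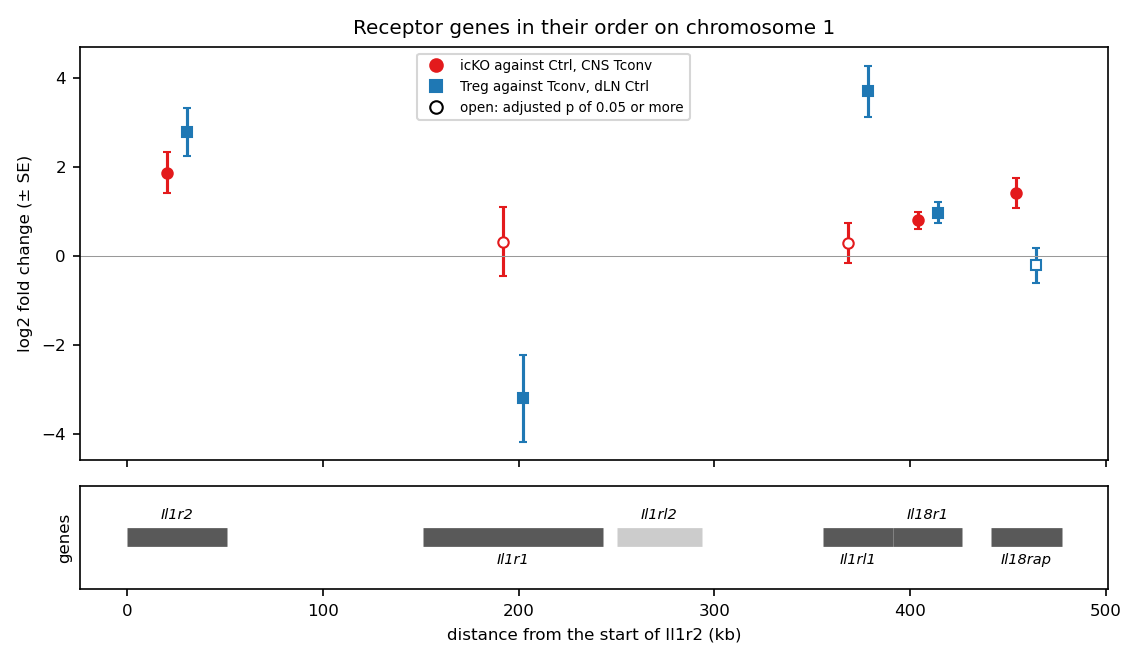
Log2 fold changes ± SE of the 5 receptor genes of the chromosome 1 cluster, placed by distance in kb from the start of Il1r2, for icKO against Ctrl in CNS Tconv (circles) and for Treg against Tconv in the dLN of Ctrl mice (squares), with open symbols at an adjusted p of 0.05 or more. Neighbours differ: Il1r1 lies at -3.19 in the dLN comparison, where Il1r2 and Il1rl1 lie at 2.78 and 3.70.

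Other genes of the IL-1 pathway were counted from lists of known pathway genes. The list of other ligands, receptors and binding proteins held 15 names for 11 genes, since 4 genes were entered under an old and a new name. All 11 genes were listed in each library, and 4 passed the filter. Il18bp, the secreted inhibitor of IL-18, was at 50.3 ± 19 CPM (SD, n = 3) in CNS Treg Ctrl and 5.40 CPM on average in dLN Treg Ctrl, a difference of 3.22 ± 0.48 log2 units (adjusted p = 9.7e-05). Il1f9, which encodes IL-36γ, was at means of 1.98 and 2.13 CPM in CNS Treg Ctrl and icKO and at no more than 0.02 CPM elsewhere. The CNS Treg libraries also held the myeloid markers given above, and the part of such RNA in the Il18bp and Il1f9 levels was not tested. Il1rl2 was lower in Treg than in Tconv of the Ctrl dLN (-2.88 ± 0.66, adjusted p = 0.0058), as its neighbour Il1r1 was. Il33, the ligand of ST2, did not pass the filter, with group means of at most 0.22 CPM.

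Of 26 genes that carry the IL-1 and IL-18 signal inside the cell, all were tested. In CNS against dLN, 8 rose and 2 fell in Ctrl Treg (13.3% and 8.55% of all genes), and 1 rose and 1 fell in Ctrl Tconv (5.97% and 2.93%). Irak3, an inhibitor of the pathway, was 2.04 ± 0.43 log2 units higher in CNS than in dLN Treg of Ctrl mice (adjusted p = 0.0021), and Irak2, a kinase that prolongs the signal, 1.40 ± 0.29 (adjusted p = 0.0020). Whether RNA of other cells in the CNS Treg libraries has a part in these differences was not tested. In CNS Tconv, icKO against Ctrl, 2 of 26 rose and none fell (1.58% and 1.53% of all genes). They were Nfkbiz, a nuclear IκB protein that IL-1 receptors induce (1.38 ± 0.31, adjusted p = 0.018), and Map3k8, the kinase TPL2 (1.47 ± 0.35, adjusted p = 0.028). The median of the 26 genes there was 0.05, against 0 over all genes.

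Of 15 genes for the inflammasome and the processing of IL-1β and IL-18, Nlrp3, the sensor protein, was at means of 5.57 CPM in Ctrl and 7.67 CPM in icKO Treg of the CNS and at most 0.27 CPM elsewhere. It was 4.94 ± 1.28 log2 units higher in CNS than in dLN Treg of Ctrl mice (adjusted p = 0.012). Myeloid markers were high in the same CNS Treg libraries, and the part of such RNA in the Nlrp3 level was not tested. Casp1, the protease that matures both cytokines, was found in all groups and was lowest in dLN Tconv, with means of 46.4 CPM in Ctrl and 45.8 CPM in icKO, against 90.8 to 106 CPM in the others. In this list 3 genes rose and none fell in CNS against dLN Ctrl Treg (13.3% and 8.55% of all genes), and 1 rose (Casp8) between icKO and Ctrl CNS Tconv (1.58%).

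Of 15 genes known from ST2-positive tissue Treg, 12 were higher in Treg than in Tconv of the Ctrl dLN (6.04% of all genes) and 8 in the Ctrl CNS (10.8%), and none was lower. Itgae, an integrin chain, was 6.01 ± 0.55 log2 units higher in Treg in the dLN (adjusted p = 2.1e-07) and 4.81 ± 0.47 in the CNS (adjusted p = 6.8e-07). In Treg, CNS against dLN, 3 of the list rose and 4 fell in Ctrl mice (13.3% and 8.55% of all genes), among them Nfil3 (2.39 ± 0.40, adjusted p = 0.00030) and Itgae (-2.18 ± 0.45, adjusted p = 0.0017). The part of other cells' RNA in the CNS Treg levels of this list was not tested. Between icKO and Ctrl CNS Tconv, where 1.58% of all genes rose, 4 of this list rose, among them Tnfrsf9 (1.97 ± 0.49, adjusted p = 0.031), Nfil3 (1.35 ± 0.34, adjusted p = 0.033) and Rora (0.61 ± 0.16, adjusted p = 0.037). Of 15 Th17 genes, 2 rose in that comparison, Hif1a (1.53 ± 0.28, adjusted p = 0.0061) and Rora, which is in both lists. Among Th1 genes, the IL-12 receptor chain Il12rb1 rose there (0.82 ± 0.21, adjusted p = 0.034). Ifng, the known target of IL-18 signals in T cells, had means of 457 CPM in CNS Tconv icKO and 55.2 CPM in CNS Tconv Ctrl but was not among the genes called.

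On the TPM scale, which allows levels of different genes to be compared, the order differed by group. Il1b (181 TPM), Il1r2 (180) and Il1rn (83.7) led in CNS Treg Ctrl, and Il1b (217), Il1r2 (96.4) and Il1rn (69.0) in CNS Treg icKO. Il1r2, Il18rap and Il18r1 led in CNS Tconv, at means of 48.0, 39.6 and 39.1 TPM in Ctrl and 174, 110 and 70.4 TPM in icKO. In dLN Treg Ctrl Il1r2 (412 TPM) was followed by Il18r1 (48.7) and Il1rl1 (20.1), and in dLN Tconv Ctrl Il1r2 (57.5) by Il18r1 (24.4), Il18rap (18.8) and Il1r1 (16.7).

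The genes whose group means most resembled those of each member were found by Pearson's r of log2 CPM over the 8 group means, among 10560 genes with at least 5 CPM in 1 group. The 8 points share their libraries and the markers of other cells described above, and r is given as a description. Il1a was nearest to Cxcl9 (r = 0.995), Il1b to H2-DMb1 (0.994) and Il1rn to Slamf8 (0.994). Il1r2 was nearest to Lpgat1 (0.994), Il1rl1 to Nol4l (0.994) and Il1r1 to Pde7a and Satb1 (0.988 each). Il18rap was nearest to Acadl (0.989), Il18r1 to 6530402F18Rik (0.980), Il18 to Pgpep1 (0.974) and Il1rap to Mrpl39 (0.970).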

How the data were processed

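RNA was isolated with a NucleoSpin RNA XS kit and libraries were made with SMART-Seq v4 and Nextera chemistry, per the labels' protocols. The processing used FastQC, Trimmomatic, STAR 2.5.3a and RSEM 1.2.28 with mm10, per the submitters' processing notes. The deposited tables give an expected count and a TPM value per gene, both made by the authors with RSEM, per the file headers, for RefSeq transcripts. RSEM shares reads that fit several genes among them.

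The expected counts, each rounded to an integer, were tested with edgeR 4.0.16 in R 4.3.3 (quasi-likelihood test, TMM scaling, filterByExpr, 13500 genes kept) in 1 fit of 8 group means over 25 libraries. Genes with a Benjamini-Hochberg adjusted p under 0.05, over all tested genes, were called. Adjusted p-values in the text are from this fit unless named, "DESeq2" stands for the Wald test of DESeq2 1.42.0, and the SE of a log2 fold change comes from the F statistic. TPM served only to compare levels between genes. Lower bounds on folds set the group at 0 to 3 counts per library. Gene positions came from GENCODE M21 and start regions from RefSeq (all 10 genes matched, with 16 start regions).

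The alternatives were all 26 libraries, the fit without the 5 CNS Tconv libraries in doubt, DESeq2 size factors, DESeq2, no filter on low counts, only the compared groups, a block on the replicate number, and each library left out in turn. Scripts were tested on simulated data. The members, the gene lists and the library left out were chosen with earlier results of these data known. From each list up to 3 called genes with the smallest p were named in a comparison, and Il33, Casp1 and Ifng were named after their values were seen. Replicate numbers were not used as pairs, because same-numbered libraries did not deviate together in every pair of groups (correlations of -0.145 to 0.113). Some results on the Th1 list are not reported here.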

Additional observations from a re-analysis of the deposited data

Results flagged for a closer look

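In 3 of 18 sets of 4 libraries (1 gene in 1 CNS Tconv group) in which a gap test was possible, 1 library stood apart from the other 3. The test's rate of 1 in 20 holds for normally distributed values and cannot be set against this share. Where 3 libraries are at 0, 1 library above 0 passes the test at any level. Il1b was at 2.91 CPM in CNS Tconv icKO replicate 2, against at most 0.341 CPM in the other 3 libraries. Il1rn was at 1.36 CPM in CNS Tconv Ctrl replicate 4 and Il18 at 1.23 CPM in CNS Tconv Ctrl replicate 2, with the other 3 libraries at 0 in both. All 3 levels are low.

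The tissue difference of Il1a and Il1b differed between Treg and Tconv of Ctrl mice, with adjusted p of the interaction of 0.0058 and 0.0034 by edgeR. With all 26 libraries neither was called (0.074 and 0.12), and the Il1b call was lost without dLN Tconv Ctrl replicate 3 (0.085). CNS Tconv Ctrl was at 0 for both genes, so the interaction has no size.

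The library labelled dLN Tconv icKO replicate 3, which was outside the fit, held Il1b at 92.6 CPM and Il1r2 at 199 CPM of its own total, whereas the 2 other libraries of that group held at most 0.574 CPM of Il1b and 47.5 CPM of Il1r2. Of the other 8 genes it held Il18r1 at 31.4 CPM and the rest at 0.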

How the results depend on the processing

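Of 150 gene and comparison pairs for the 10 genes, 40 were called, and 24 of these were called in every fit that left out 1 library. No called value changed sign under any alternative. Among 2188 values under alternatives, 115 had another sign with neither fit past the threshold. With all 26 libraries, the number of the 10 genes called fell from 4 to 0 in CNS against dLN Ctrl Tconv, from 4 to 2 in CNS against dLN icKO Treg, from 4 to 2 in Treg against Tconv of the Ctrl dLN, from 4 to 0 in icKO against Ctrl CNS Tconv, and from 2 to 0 in the interaction of tissue and cell type. The common dispersion was 0.142 with 25 libraries and 0.364 with 26. Without the 5 CNS Tconv libraries in doubt, it fell from 4 to 1 in CNS against dLN Ctrl Tconv, from 6 to 3 in Treg against Tconv of the icKO CNS and from 4 to 1 in icKO against Ctrl CNS Tconv, and it rose from 0 to 1 in the genotype interaction of CNS Treg and Tconv. With the compared groups alone it went from 3 to 5 in CNS against dLN Ctrl Treg, from 4 to 0 in CNS against dLN Ctrl Tconv, from 3 to 6 in Treg against Tconv of the icKO dLN and from 4 to 1 in icKO against Ctrl CNS Tconv. In the last of these, Il1r2 (adjusted p = 0.13) and Il18r1 (0.065) were not called, and Il1a did not pass the filter and was not tested. With DESeq2 the number called rose from 2 to 4 in the interaction of tissue and cell type, from 0 to 3 in the genotype interaction of CNS Treg and Tconv and from 0 to 1 in that of CNS and dLN Tconv. With the replicate block it fell from 4 to 2 in CNS against dLN Ctrl Tconv and moved no other count by over 1.5 times. When 1 library was left out, the count ran from 0 to 4 in CNS against dLN Ctrl Tconv, 2 to 4 in CNS against dLN icKO Tconv, 2 to 3 in Treg against Tconv of the Ctrl dLN, 0 to 4 in icKO against Ctrl CNS Tconv, 1 to 3 in the interaction of tissue and cell type, and 0 to 1 in both genotype interactions. DESeq2 size factors and no filter on low counts moved no count by over 1.5 times. The cause of these changes was not tested. Groups of 2 to 4 libraries limit the precision, and levels under 3 counts per library carry no order.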
